A study of Caenorhabditis elegans with 2 samples.

Results

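Chromatin bound by the *Caenorhabditis elegans* protein MADF-2 was examined at the 2 worm genes of the MYRF family, *myrf-1* and *myrf-2*, out of 19985 annotated protein-coding genes. Every listed region was taken that overlapped a window from 3 kb upstream of a gene's annotated 5′ end to its 3′ end. That gave 12 of the 30000 regions called on both replicates pooled, and 3 of the 772 regions that the authors kept after their filter for reproducibility (the irreproducible discovery rate), called optimal regions here. Of all pooled regions, 2.57% were optimal. The genes were chosen by the pooled signal value and rank of an intron region of *myrf-2*, so the signal values and ranks that follow describe the choice and carry no test. In the optimal list the 3 weakest members had signal values of 69.71, 69.63 and 69.61, and the 3 strongest pooled regions left out had 69.54, 69.51 and 69.50. No pooled region outside the optimal list had a higher signal value than one inside it, for 772 of 772.

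The data come from chromatin immunoprecipitation and sequencing (ChIP-seq) of whole late embryos of strain OP587, of both sexes, collected 3 hours after synchronisation by bleaching. All animals carried the *unc-119*(tm4063) allele on chromosome III and the transgene insertion wgIs587, which expresses MADF-2 with green fluorescent protein and FLAG at its C-terminus. An antibody to the fluorescent protein was used to precipitate it, per the experiment description, although the antibody field of the labels names MADF-2. There was 1 group of 2 biological replicates, with no untagged, mutant or other-stage group, so the embryos' cell types were not resolved and no contrast between conditions exists. The signal value is the authors' value for each region on a scale that the sources used here do not give, so it was used to order and describe regions within a list, and a ratio between replicates is read only beside those of other regions. It ran from 69.6 to 1036 (median 95.2) over the optimal regions and from 17.5 to 1036 (median 25) over the pooled list. Replicate 1 listed 30000 regions (11.2 to 571) and replicate 2 listed 27350 (10.8 to 832), and the sequencing depth is unknown from these lists. Candidate regions and background are listed together, and for that reason regions that are not optimal are given as values and not as bound sites. No region of any list overlapped the window of *madf-2* itself.

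MYRF proteins are transcription factors made as membrane proteins of the endoplasmic reticulum. They assemble, cut themselves, and release an N-terminal part that enters the nucleus and binds DNA; in vertebrates MYRF is needed for oligodendrocytes to make myelin. In *C. elegans*, MYRF-1 and MYRF-2 act with the membrane protein PAN-1, drive larval development, raise transcription of the microRNA gene *lin-4* and promote the rewiring of the DD motor neurons during larval life. MADF-2 belongs to a family of proteins with the MADF domain, a DNA-binding fold related to that of Myb.

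The strongest region of each gene is printed because the account of the loci turns on them. Both are 300 bases of the RefSeq WBcel235 sequence (build ce11) around the pooled summit, the position of highest signal, read on the minus strand, which is the coding strand of both genes. Neither stretch overlaps a coding gene's exon. The *myrf-2* sequence is chrX:10188551-10188850 and the *myrf-1* sequence is chrII:10502608-10502907. Capitals mark matches on either strand to the word GAGAG, to the letters of the vertebrate MYRF core, CTGGNAC, and to a GC-rich word frequent in optimal regions, GCGCAC, whose counts are given with the sequence results.
myrf-2 intron 1 region: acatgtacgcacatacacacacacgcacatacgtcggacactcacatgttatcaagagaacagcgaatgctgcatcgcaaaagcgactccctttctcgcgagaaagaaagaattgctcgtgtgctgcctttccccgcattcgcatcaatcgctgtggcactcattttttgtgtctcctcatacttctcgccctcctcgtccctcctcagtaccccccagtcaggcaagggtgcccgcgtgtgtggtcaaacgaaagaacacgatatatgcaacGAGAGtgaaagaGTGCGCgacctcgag
myrf-1 upstream region: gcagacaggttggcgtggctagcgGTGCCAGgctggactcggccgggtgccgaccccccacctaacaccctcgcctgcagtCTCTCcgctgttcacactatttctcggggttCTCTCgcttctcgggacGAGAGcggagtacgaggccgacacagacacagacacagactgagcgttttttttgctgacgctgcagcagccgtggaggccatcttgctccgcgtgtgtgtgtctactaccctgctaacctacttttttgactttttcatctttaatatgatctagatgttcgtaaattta

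The strongest region of *myrf-2* ranked above that of *myrf-1* in each list, and it lay in another position relative to the gene. At *myrf-2* the main region lay inside the gene, in the first intron of its long transcripts and just ahead of its short ones. At *myrf-1* it lay directly upstream of the single annotated 5′ end. The strongest signal value of *myrf-2* was 389.7 in the pooled list, 218 in replicate 1 and 175 in replicate 2. The strongest of *myrf-1* was 71.6 in the pooled list, 41.5 in replicate 1 and 29.8 in replicate 2. Each list thus placed *myrf-2* above *myrf-1*. The pooled list, by which *myrf-2* was chosen, was made from the same 2 replicates, so their order is no separate support. Both genes had at least 1 optimal region, as had 1184 of all 19985 protein-coding genes (5.92%). At least 2 optimal regions, as at *myrf-2*, were found at 56 genes (0.28%), but the weaker one of *myrf-2* had its summit 2978 bp upstream of it and 351 bp upstream of the neighbouring gene *nucb-1*, and with a window from 1 kb upstream *myrf-2* had 1. Ordered by their strongest region, *myrf-2* was number 20 and *myrf-1* number 1130 of the 1184 genes with an optimal region, where neighbouring genes can share a region. Both genes also had an optimal summit between 1000 bp before and 200 bp after the 5′ end of a transcript, as had 611 genes (3.06%). At *myrf-2* that summit was of the region the gene was chosen for. None of these shares was matched for window length or for the number of annotated 5′ ends, of which *myrf-2* has 10.

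**Figure D1:**
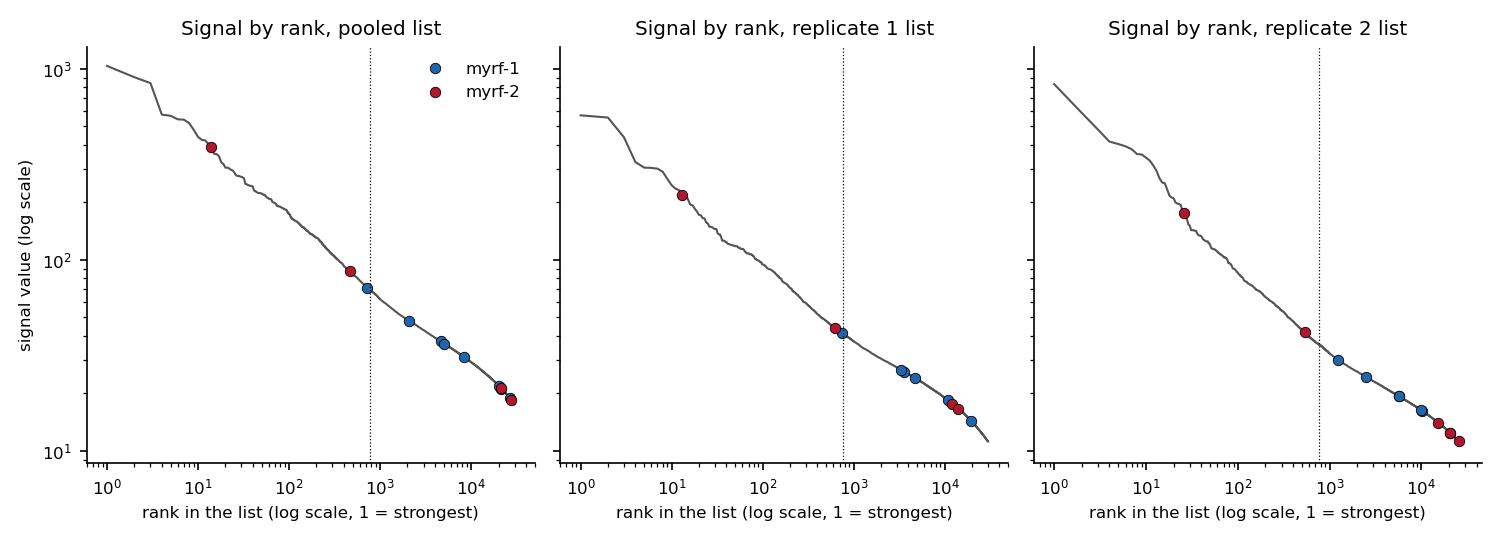
Signal value (log scale) against rank (log scale, 1 is strongest) in the pooled list and in the 2 replicate lists; the line is the whole list, the points are regions in the windows of *myrf-1* (blue) and *myrf-2* (red), and the dotted line stands at rank 772. The strongest *myrf-2* region has rank 14 in the pooled list, 13 in replicate 1 and 26 in replicate 2, while the strongest *myrf-1* region lies near the dotted line at ranks 721, 745 and 1246.

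The gene *myrf-2* (WBGene00008999) lies on the minus strand of chromosome X from 10180940 to 10194377, a span of 13.4 kb with 11 annotated transcripts that use 10 different 5′ ends. Its strongest region ran from 10188527 to 10188882 (356 bp) with the pooled summit at 10188700, rank 14 of 30000 and a −log10 q-value of 3.03, the ceiling reached by 536 optimal regions. In replicate 1 the region ran from 10188528 to 10188848, with rank 13 and the summit at 10188701. In replicate 2 it ran from 10188613 to 10188825, with rank 26 and the summit at 10188723. The summits of the replicates were 22 bp apart and the signal of replicate 1 was 1.24 times that of replicate 2. Over the 766 optimal regions found in both replicates, the quartiles of the summit distance were 11, 28 and 53 bp, and those of the ratio were 0.92, 1.14 and 1.46. The *myrf-2* region fell between the outer quartiles on both measures.

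The summit was 5.68 kb inside the gene as measured from its outermost 5′ end. It lay in intron 1 of 5 transcripts (F21A10.2a.1, c.1, a.5, e.1 and a.6), whose first introns are 6331, 2259 or 1177 bp long. The other 6 transcripts start downstream of the summit, all of them within 1000 bp. Transcript a.2 starts 230 bp downstream of it, a.7 259 bp and b.1 270 bp. The starts of d.1, at 714 bp, and of a.3 and a.4, both at 742 bp, are farther. The region was therefore intronic for the long transcripts and upstream of the annotated start of the short ones, and these lists cannot tell which transcripts the embryos made. For the 5 transcripts that start upstream, no pooled summit fell between 1000 bp before and 200 bp after the 5′ end, the promoter window used here. Replicate 2 alone listed a weak region with its summit 6 bp upstream of the outermost 5′ end (signal 14, rank 15244) and another near the starts of a.5 and e.1 (signal 11.2, rank 25408). Annotated 5′ ends of worm genes are often sites of trans-splicing, the joining of a short leader RNA to the transcript, so distances to them are approximate.

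**Figure D2:**
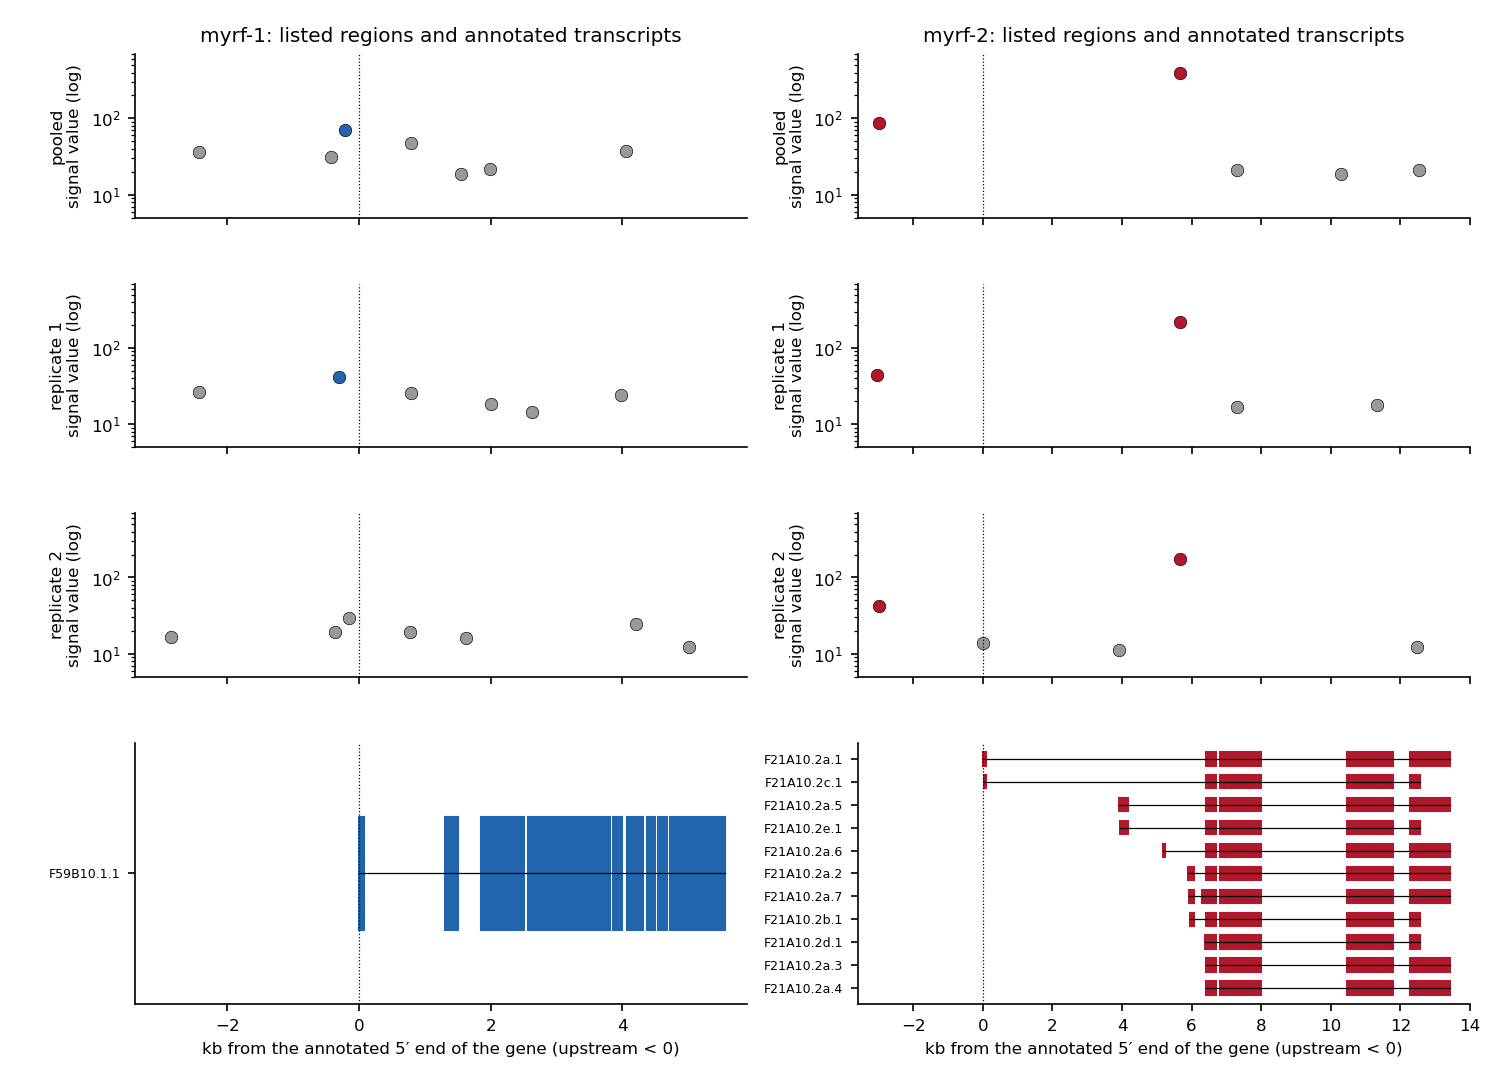
Regions listed in the window of each gene, plotted by the distance of their summit from the annotated 5′ end of the gene (kb, upstream negative) and their signal value (log scale) in the pooled list and in each replicate, above the annotated transcripts (boxes are exons, lines are introns). Coloured points are among the 772 strongest of their list and grey points are not; the point for *myrf-2* at 5.68 kb sits in the first intron of the 5 upper transcripts and just ahead of the 6 lower ones in all 3 lists.

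The rest of the *myrf-2* gene held weak regions only. The pooled list had 3 further regions within it, with signal values of 18.5, 21.2 and 21.4 and ranks of 27593, 21386 and 21073. The one of 18.5 lay in a later intron at the 5′ end of *arrd-28*, a gene for an arrestin-domain protein that is nested in *myrf-2* on the other strand. The regions of 21.2 and 21.4 lay in exons shared by all 11 transcripts, and each had a partner in 1 replicate only. In all, the window of *myrf-2* held 5 pooled regions, or 3.04 per 10 kb, against 2.99 per 10 kb over the nuclear genome. The window of *myrf-2* was thus ordinary in how many regions it held. The strength of 1 of them is what the gene was chosen for.

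The other optimal region in the *myrf-2* window lay at its far upstream edge, on chromosome X from 10197157 to 10197552. Its pooled signal value was 87.7 (rank 462), with 44.1 in replicate 1 (rank 627) and 41.7 in replicate 2 (rank 533). The replicate summits were 47 bp apart, and the values differed by a ratio of 1.06. The pooled summit was 2978 bp upstream of *myrf-2* but 351 bp upstream of *nucb-1*, a nucleobindin gene that is transcribed in the opposite direction and starts 3328 bp from *myrf-2*. By position this region belongs to the promoter of *nucb-1*, and it is counted for *myrf-2* through the width of the window alone. At the other end, *ncs-4*, a gene of the neuronal calcium sensor family 277 bp from the 3′ end of *myrf-2*, had 2 pooled regions in its own window, none of them optimal, the stronger with a signal value of 25.1.

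The gene *myrf-1* (WBGene00004134) lies on the minus strand of chromosome II from 10496987 to 10502541 (5.55 kb) and has 1 annotated transcript, F59B10.1.1. Its optimal region ran from 10502559 to 10502954 with the pooled summit at 10502757, 216 bp upstream of the 5′ end, rank 721 and a −log10 q-value of 2.68. The summit was 304 bp upstream in replicate 1 (rank 745) and 155 bp upstream in replicate 2 (rank 1246). These summits were 149 bp apart and the signal ratio was 1.39. The distance was beyond the upper quartile of optimal regions and the ratio was within it. Only in replicate 1 was this region among the 772 strongest of the replicate's own list, whereas both replicates placed the 2 optimal regions of *myrf-2* there. Of the optimal regions, 447 were among the 772 strongest of both replicates. The region also overlaps F59B10.7, a noncoding RNA gene on the opposite strand from 10502652 to 10503191, so its signal cannot be assigned to *myrf-1* alone.

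**Figure D3:**
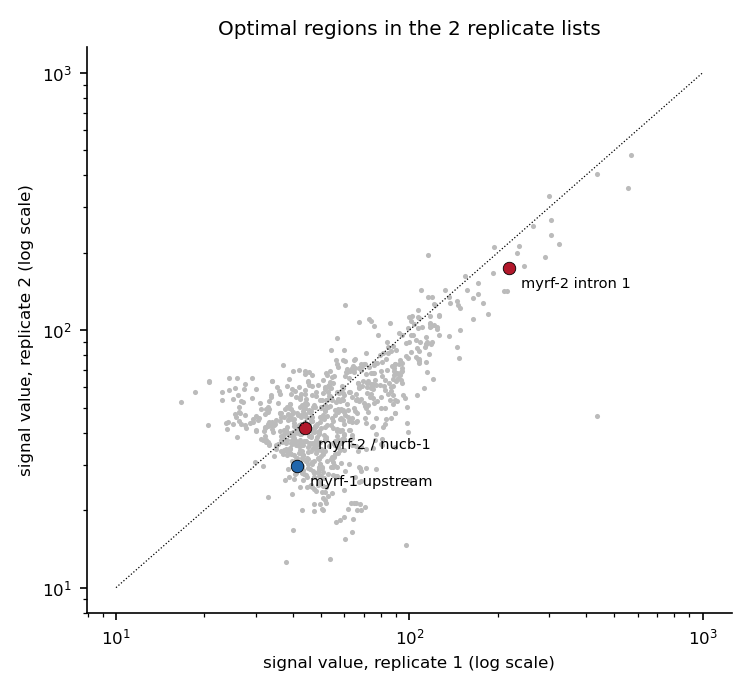
Signal value in replicate 1 against replicate 2 (both log scales) for the 766 optimal regions found in both replicates, with the 3 regions of the *myrf-2* (red) and *myrf-1* (blue) windows named and equal values on the dotted line. The *myrf-2* intron 1 region (218 and 175) lies among the strongest regions of both replicates, and the *myrf-1* region (41.5 and 29.8) and the region shared with *nucb-1* (44.1 and 41.7) lie in the dense lower part.

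Weaker regions were spread along *myrf-1*, in contrast to *myrf-2*. Besides the optimal region the pooled list held 6 more, with signal values from 18.8 to 48. The strongest of these lay in intron 1, 793 bp downstream of the 5′ end (signal 48, rank 2083), with values of 26 in replicate 1 and 19.3 in replicate 2 and summits 27 bp apart. One with its pooled summit in intron 5 had a signal value of 37.4 (rank 4615), with 24.1 in replicate 1 and 24.3 in replicate 2. Those values are alike, but the replicate summits were 230 bp apart and both lay in exons. A region 2422 bp upstream had 36.3 (rank 5101), with a partner of 26.6 in replicate 1 and none in replicate 2. The others were a region overlapping the optimal one (30.9), a region in an exon (21.8) and a region in intron 2 (18.8). The window of 8.55 kb held 8.18 pooled regions per 10 kb, with overlapping regions counted separately, against 2.99 per 10 kb over the nuclear genome. The neighbouring genes ZK666.12 and F59B10.2 had 0 and 1 pooled regions in their windows, which are shorter.

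Among strong regions, the position of the *myrf-2* region was shared by a minority. The summits of 171 optimal regions lay in introns and outside promoters, which is 2.01% of the 8523 such summits in the pooled list. Their median signal value was 96.1, and that of *myrf-2* was the 4th highest. Of the 171 regions, 69 were over 300 bp from any gene for a tRNA, snoRNA, snRNA or microRNA; their median was 82.5 and *myrf-2* was the 2nd highest. Many worm genes have internal starts like those of *myrf-2*, so an intron of one transcript can be the promoter of another. Counting every annotated transcript, 27 of these 69 summits (39.1%) fell in the promoter window of a transcript. Among the other pooled intron summits that far from small RNA genes the count was 1229 of 8190 (15%). The 27 had a median signal value of 79.3 and the other 42 had 84.4. The value of 389.7 at *myrf-2* was above both, as its choice by signal value implies.

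**Figure D4:**
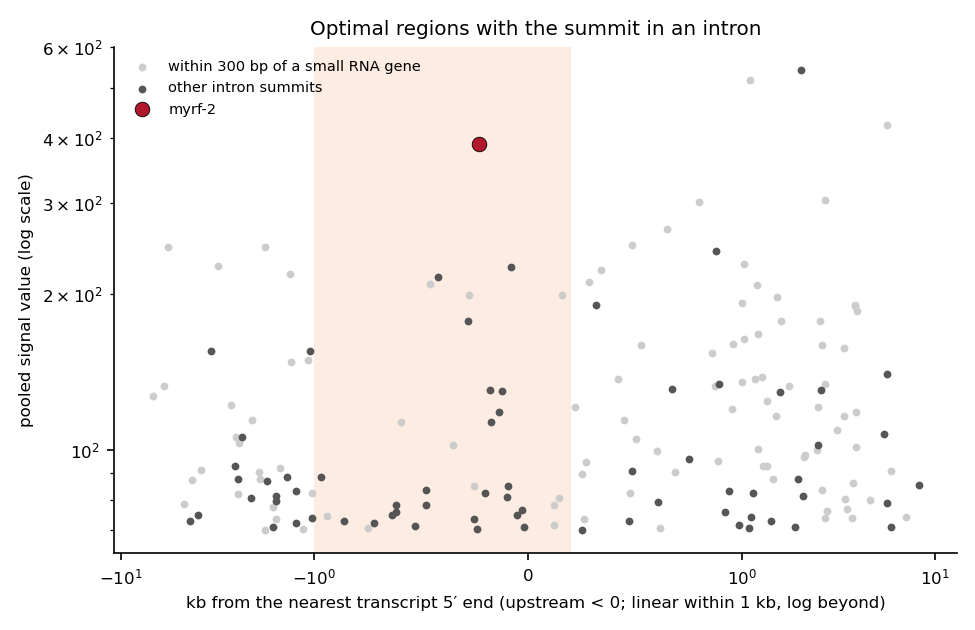
Pooled signal value (log scale) of the 171 optimal regions with the summit in an intron against the distance to the nearest annotated transcript 5′ end (kb, upstream negative, linear within 1 kb and logarithmic beyond). The shaded band is the promoter window, 1000 bp before to 200 bp after the start; light points lie within 300 bp of a small RNA gene, dark points do not, and *myrf-2* (389.7) is the highest point in the band.

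The 5 genes whose strongest intron region away from small RNA genes was nearest in signal value to that of *myrf-2* were *ints-8*, *T18D3.9*, *cab-1*, *T24B8.3* and *tba-7*. The gaps in value were wide. *T18D3.9* on chromosome X had the only higher one, 542 (304 in replicate 1, 234 in replicate 2), in intron 4 or 5 depending on the transcript. *ints-8*, a gene for a subunit of the Integrator complex, had 242 (126 and 114), within 300 bp of the noncoding RNA gene *rpr-1*. *cab-1* had 225 (121 and 105) in intron 1, 81 bp upstream of the start of another transcript of its own. *T24B8.3* had 216 (145 and 85.7) in intron 2, 421 bp upstream of such a start. *tba-7*, an alpha-tubulin gene, had 190.3 (106 and 85.2) in intron 1. Replicate 1 was above replicate 2 at *myrf-2* and at each of the 5, as at most optimal regions (median ratio 1.14). Like *myrf-2*, 2 of the 5, *cab-1* and *T24B8.3*, had an intron region ahead of an internal start. Annotated noncoding RNA genes of other kinds lay within 300 bp of the regions at *cab-1*, *T24B8.3* and *tba-7* too, and none lay that near the regions at *myrf-2* and *T18D3.9*.

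The 2 sequences printed above were both richer in GC than most optimal windows. In windows of the summit base and 150 bp on each side, GC content was 52.5% at *myrf-2* and 54.5% at *myrf-1*, against a median of 44.2% over optimal and 41.2% over other pooled windows. Of the optimal windows, 12.8% were at least as GC-rich as *myrf-2* and 7.12% as *myrf-1*. The CG dinucleotide occurred 23 times at *myrf-2* and 20 times at *myrf-1*, against medians of 16 and 12. The region shared with *nucb-1* was AT-rich, at 38.9% GC with 11 CG dinucleotides. The longest run of bases that the 2 windows share, on either strand, was 12 bp, made mostly of repeated AC. How often other windows share such a run was not computed. All 266 words of 36 bases in each of the 3 windows occurred once in the genome, as in 547 of the 772 optimal windows (70.9%).

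Searched on both strands, GAGAG occurred once in the *myrf-2* window, 125 bp downstream of the summit, and 3 times in the *myrf-1* window, at 19, 36 and 67 bp upstream of it. The word is common, being held by 66.3% of optimal and 45.9% of other pooled windows. CTGGNAC, the MYRF core, occurred once at *myrf-1*, 123 bp upstream of the summit, and not at *myrf-2*; 6.87% of optimal and 8.76% of other pooled windows hold it. GCGCAC, chosen after its values were seen, occurred once at *myrf-2*, 137 bp downstream of the summit, and was held by 23.3% of optimal and 6.81% of other pooled windows. Words of 6 bases held by at least 10% of optimal windows were ranked by how much their share was raised there. The windows of *myrf-1* and *myrf-2* and those near small RNA genes were left out. GCGCAC was the 2nd of the top 10 words, held by 26.4% of these optimal and 6.75% of these other pooled windows. The *myrf-2* window held 3 of those 10 words, which overlap one another in their letters, the region shared with *nucb-1* held 1 and the *myrf-1* window held 0. The median was 2 over 542 optimal windows and 0 over 28730 other pooled windows. The B box and A box of tRNA genes, searched as consensus words, and the splice-site word TTTCAG were in none of the 3 windows. The B box was held by 13.9%, the A box by 4.27% and TTTCAG by 25.9% of optimal windows, against 0.934%, 0.479% and 39% of other pooled windows. A match is a description of letters and not of a bound site.

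Genes that time larval development were listed for context. That *myrf-2* stood above all of them follows from its choice by signal value and says nothing about these genes. Neither *pan-1* nor *lin-4* had an optimal region, and most genes had none. In a list of 35 heterochronic and larval timing genes, all 35 had a pooled region from 3 kb upstream to the 3′ end, and 8 had an optimal one (22.9%, 95% Wilson interval 12.1% to 39%, which covers counting error only). Of all 19985 protein-coding genes, 14069 had a pooled region and 5.92% an optimal one. An optimal region was found at 7.66% of the 261 microRNA genes. These shares were not matched for window length, and single windows of the list held up to 18 pooled regions, so no enrichment is read from them. The median of the strongest signal value per gene was 50.2 (range 22.6 to 139) in the list, against 31.3 over the 14069 protein-coding genes with a pooled region. All 8 with an optimal region but *alg-1* (71.4) exceeded the 71.6 of *myrf-1*. The strongest was *ain-1*, for a GW182-type protein of the microRNA silencing complex, with 139 (82 in replicate 1, 60.8 in replicate 2) and its summit 940 bp upstream. Its paralog *ain-2* had 39.4 and no optimal region. *nhl-2*, for a TRIM-NHL cofactor of microRNAs, had 109 (61.7 and 46) at a region that also lies in the promoter of *tag-340*. *alg-1*, for a microRNA Argonaute, had 71.4 (36.6 and 37.4) at 1620 bp inside the gene, the lowest of the 8, and its paralog *alg-2* had 42.2 and no optimal region.

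The other 5 were *puf-9*, *kin-20*, *lin-66*, *let-60* and *grh-1*. *puf-9*, for a Pumilio-family protein, had 108 (63.9 and 45.5) and its summit 344 bp upstream. *kin-20*, for a casein kinase related to fly Doubletime, had 87.1 (67.5 and 29.3), 2232 bp inside the gene, and *lin-66*, a regulator of *lin-28*, had 83.5 (47.2 and 41.5), 393 bp upstream. *let-60*, the worm Ras gene, had 81.6 (56.8 and 29.5). The Grainyhead gene *grh-1* had 75.6 (56.1 and 18), with the summit 3051 bp upstream and in the promoter of Y48G8AR.8. The replicates were least alike at *grh-1*, where replicate 2 placed the region at rank 7273. At *pan-1*, whose protein binds MYRF, the strongest of 3 pooled regions had a signal value of 28 (rank 11225) and a partner in replicate 1 only (18.8). At the microRNA gene *lin-4*, which MYRF proteins switch on, the strongest of 3 had 26.2 (rank 13272), with 14.5 and 16.6 in the replicates. In the list of 13 genes of DD motor neuron rewiring, 0 had an optimal region (a share of up to 22.8% by the 95% Wilson interval). A list of 13 genes is too short to be told apart from the 5.92% of all protein-coding genes, so no comparison is read from it. A pooled region was found at 12 of the 13, as at 14069 of all 19985 protein-coding genes, and their strongest values ran from 22.1 to 63 (median 39.1). The genes *lin-14* and *hbl-1* were in both lists. Both lists were written with earlier results of these data known, so their counts are a description.

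**Figure D5:**
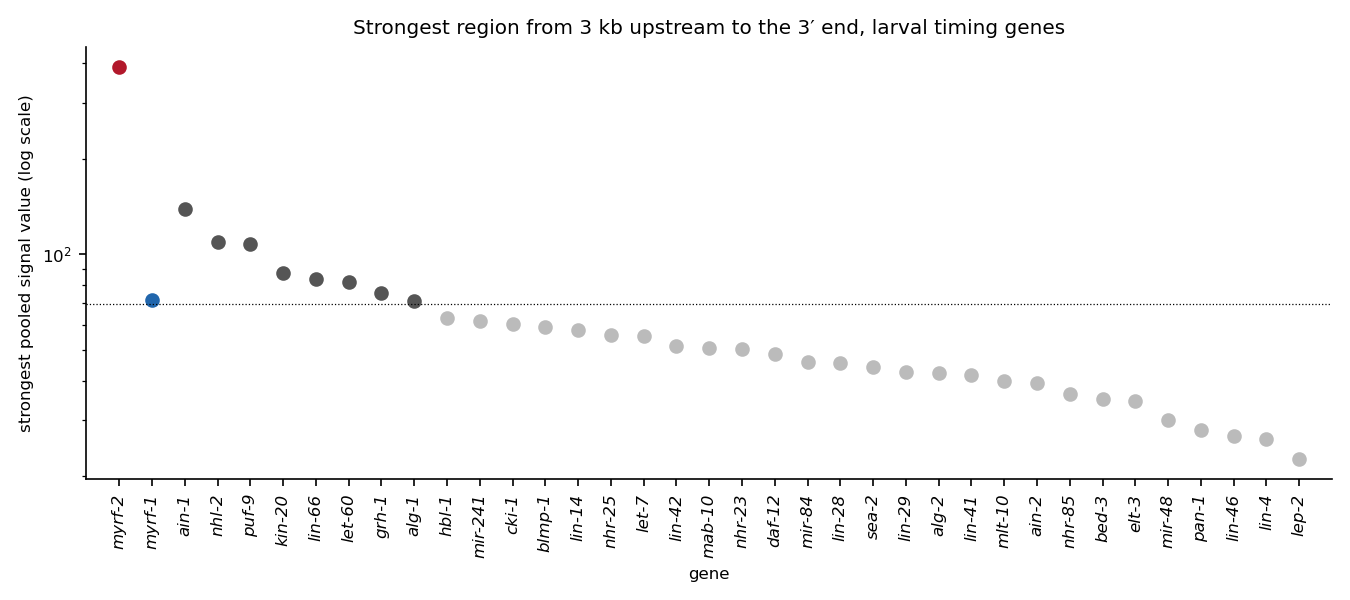
Strongest pooled signal value (log scale) from 3 kb upstream to the 3′ end for *myrf-2* (red), *myrf-1* (blue) and the 35 larval timing genes in order of signal (dark grey where the region is optimal, light grey where not), with the optimal threshold as a dotted line. *myrf-2*, chosen by its signal value, is at 389.7, and *ain-1* at 139 is the highest of the list. *myrf-1* at 71.6 lies just above the line, while *pan-1* (28) and *lin-4* (26.2) are near the low end.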

How the data were processed

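Sonicated chromatin of 2 biological replicates was precipitated, per the labels. Each replicate list, and the pooled list, came from alignments set against a control alignment, and the optimal list from these 3, per the deposited file records. No source used here names the aligner, the peak caller, their settings or the depth, and the control was not analysed here. Signal values are the authors' deposited values per region, and they served to order and describe regions inside 1 list. The −log10 q-values, deposited by the authors too, reach a ceiling and were not ranked. Summit offsets, as deposited, placed the regions. Lists on build ce10 were not used.

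Regions on ce11 were joined to the Ensembl annotation of WBcel235 (release 115) with Python 3.11.15, by an overlap of at least 1 bp, and each listed region was counted. Promoter windows ran from 1000 bp before to 200 bp after a protein-coding 5′ end. The replicate partner of a region was the overlapping region with the nearest summit. Wilson intervals came from SciPy 1.17.1 and figures from matplotlib 3.10.9. Region overlap and ranking were checked on simulated regions, and distances and intron numbering on made-up examples. No test was made, since there is 1 group and the genes were chosen from these lists. The genes, the gene lists and the words searched were chosen with earlier results of these data known.

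Named genes were *myrf-1*, *myrf-2*, *madf-2*, their neighbours, the 5 genes nearest to *myrf-2* in the signal value of an intron region away from small RNA genes, each listed gene with an optimal region, and *pan-1* and *lin-4*. Noncoding RNA genes, genes sharing a promoter and genes held by both lists are named as context, and *ain-2* and *alg-2* were added after their values were seen. Alternatives were other windows, summit-based membership, merged regions, the stronger 386 optimal regions and the 772 strongest regions of 1 replicate alone.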

Additional observations from a re-analysis of the deposited data

How the results depend on the processing

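The share of all genes counted as unchanged inside its 95% interval, and a count or rank within 1.5 times of the main value. Of 52 alternatives computed for 8 values, 40 left the value unchanged. The 7 pooled regions of *myrf-1* and the 5 of *myrf-2* were among these under every window, membership and merging choice tried. With a window from 1 kb upstream, *myrf-2* kept 1 of its 2 optimal regions and the share of all genes with one went from 5.92% to 4.25%; from 5 kb upstream that share was 7.37%, and by summit position 5.52%. With the stronger 386 optimal regions, *myrf-1* had 0 and *myrf-2* had 1, the share of all genes was 3.01% and 3 timing genes remained of 8. Leaving out 1 replicate, with the 772 strongest regions of the other in place of the optimal list, gave *myrf-1* between 0 and 1 regions, a rank of its strongest region between 745 and 1246, a rank of the strongest *myrf-2* region between 13 and 26, a share of all genes between 5.48% and 6.13%, and between 6 and 11 timing genes. The 0 for *myrf-1* and the ranks 1246 and 26 came without replicate 1. The cause of these shifts was not tested. No paired analysis was possible because there is 1 group. Depth is unknown, overlapping coding and noncoding genes cannot be told apart, and the rank of *myrf-1* lies close to the threshold.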

Other observations

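Counting internal starts changes how regions are placed over the whole optimal list. With 1 annotated 5′ end per gene, 409 of the 772 optimal summits (53%) lay in promoters, and with every annotated transcript start 450 (58.3%) did. The *myrf-2* summit is among those that move from intron to promoter. Of all 171 optimal intron summits, 39 (22.8%) lay in the promoter window of a transcript, against 1252 of 8352 other pooled intron summits (15%). The optimal region of *myrf-1* was 391st by signal value among the 409 promoter summits, whose median was 95.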
